A study of Gallus gallus with 2 samples.

Results

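The 10 genes described here encode parts of the Notch pathway: the receptors NOTCH1 and NOTCH2, the ligands JAG1, JAG2, DLL1 and DLL4, the receptor-modifying enzyme LFNG, and the target transcription factors HES1, HEY1 and HEY2. They were chosen by symbol, and each had 1 row in a table of 24356 rows. Messenger RNA had been sequenced from both wings of 1 chick (Gallus gallus) embryo selected for overexpression of SOCS2, a suppressor of cytokine signalling. Its right wing was the one injected, with RCAS-GFP-SOCS2, a replication-competent avian retrovirus carrying green fluorescent protein and SOCS2, and its left wing served as the uninjected control. RNA was extracted 5 days after infection, when the embryo was at HH 34, a Hamburger-Hamilton stage. The series' title names the purpose as the role of SOCS2 in the reduction of the third digit of the forelimb. No strain, age in days or share of infected cells is given in the sources used here. With 1 library in each group, neither a p-value nor a standard error was computed, and injected against uninjected cannot be told apart from right against left. No wing injected with a virus lacking SOCS2 is among the samples. SOCS2 therefore cannot be told apart from virus infection, green fluorescent protein or the injection itself.

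Notch signalling passes between cells in contact. A ligand of the Jagged or Delta family on one cell binds a Notch receptor on its neighbour, the receptor is cut by an ADAM protease and then by gamma-secretase, and the freed intracellular part joins the DNA-binding protein RBPJ and a Mastermind coactivator to switch on genes of the HES and HEY families, which encode transcriptional repressors. In vertebrate limbs the pathway is known for roles in the arterial endothelium, in holding muscle precursors undifferentiated, and in the timing of cartilage maturation; in the mouse, loss of Jag2 leaves digits fused.

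Levels were deposited in TPM, a unit of transcript abundance that corrects for length and gives each library the same total, which allows levels to be compared between genes. The difference between wings is given as a log2 ratio, the log2 of TPM + 0.1 for the right, injected wing less that for the left, uninjected one. Genes past 1.5-fold (0.58 on the log2 scale) are called higher or lower, by a rule of size and not a test. Where a pair of TPM values is given without naming the wings, the uninjected wing comes first. The depth of these 2 libraries is unknown, because TPM keeps no record of it. SOCS2 itself was at 54.2 TPM in the left, uninjected wing and 254 TPM in the right, injected wing, a ratio of 2.23 on the log2 scale. In whole wings, fewer cells of a type and less RNA per cell cannot be told apart.

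All 10 Notch genes were expressed in both wings and none differed between them by more than 1.5-fold. Their mean levels ran from 6.33 TPM for HEY2 to 148 TPM for NOTCH2. The log2 ratios ran from −0.33 for DLL4 to 0.44 for HES1, with 4 above 0, 6 below 0 and a median of −0.01. LFNG and HEY1 lay so near to 0 that under 3 other scalings, and with the trend of ratio over abundance removed, the tally became 6 above and 4 below, with medians of 0.01 to 0.03. Among the 13946 genes compared, 7.02% passed 1.5-fold, 2.23% as higher and 4.79% as lower; the median was −0.04 and 40.3% of ratios were above 0. Higher genes were 31.8% of those calls, and 45.1% once the trend of ratio with abundance was taken out. Among the 9971 genes with a mean inside the range of the Notch genes, 3.26% passed 1.5-fold in either direction, so 0 of 10 is close to that background.

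**Figure D1:**
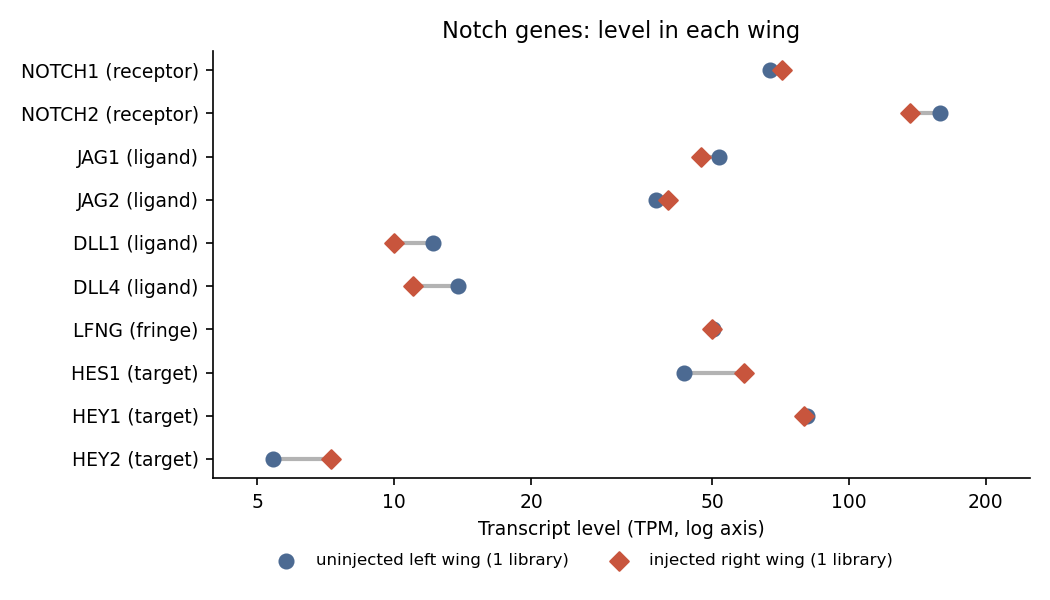
Level of each Notch gene in TPM (log axis) in the uninjected left wing (circles) and the injected right wing (diamonds), 1 library each, with a grey line joining the 2 wings. NOTCH2 was the most abundant in both wings and HEY2 the least; HES1 and HEY2 were at higher values in the injected wing, and DLL1 and DLL4 at lower values.

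The order of levels was nearly the same in both wings. NOTCH2 came first, followed by HEY1 and NOTCH1, and JAG2, DLL4, DLL1 and HEY2 took the last 4 places in both. The middle of the order differed: JAG1, LFNG and HES1 followed each other in that order in the uninjected wing and in the reverse order in the injected wing. With 1 library a wing, the only spread used is that between wings. By mean level there were 9 pairs of neighbours in the order, and in 3 of them the values of the pair overlapped over the wings: HES1 with LFNG, LFNG with JAG1, and DLL4 with DLL1. Within each wing DLL4 was still above DLL1, whereas HES1 with LFNG and LFNG with JAG1 changed order between wings. The other 6 pairs kept their order even when 1 gene was read in each wing.

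Both receptors were well above most genes in level, with NOTCH2 above 92.2% and NOTCH1 above 79.5% of the genes compared. NOTCH2 (ENSGALG00000002922) was at 159 TPM in the left, uninjected wing and 136 TPM in the right, injected wing, a log2 ratio of −0.22. NOTCH1 (ENSGALG00000002375) was at 66.9 and 71.2 TPM in the same order, a ratio of 0.09. The receptors therefore lay on opposite sides of 0, and NOTCH2 exceeded NOTCH1 by 2.37-fold in the uninjected and 1.91-fold in the injected wing. NOTCH2 made up 70.4% of the summed receptor TPM in the uninjected wing and 65.7% in the injected wing. Of all genes compared, 20.5% had a ratio as low as that of NOTCH2 or lower, and 24.4% had one as high as that of NOTCH1 or higher.

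Among the 4 ligands, the Jagged genes stood several times above the Delta genes. JAG1 (ENSGALG00000009020), a ligand known in vessels and in mesenchyme, was at 51.9 TPM in the left, uninjected wing and 47.3 TPM in the right, injected wing (log2 ratio −0.13). JAG2 (ENSGALG00000011696), known from the apical ectodermal ridge of the mouse limb bud, was at 37.6 and 39.9 TPM (0.09). For each Jagged gene the wings differed by less than JAG1 differed from JAG2, and JAG1 was the higher of the pair in both wings.

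DLL1 (ENSGALG00000011182), a ligand that in the chick limb is known from differentiating muscle and maturing cartilage, was at 12.2 TPM in the left, uninjected wing and 9.99 TPM in the right, injected wing, a log2 ratio of −0.28. DLL4 (ENSGALG00000008514), the ligand of arterial and sprouting endothelium, was at 13.8 and 11.0 TPM, a ratio of −0.33. Both Delta genes had lower values in the injected wing, by 17.8% and 20.3%, within the 1.5-fold range. Of all genes compared, 15.6% had a ratio as low as that of DLL1 and 12.7% one as low as that of DLL4. The summed Jagged level was 3.45 times the summed Delta level in the uninjected wing and 4.16 times in the injected wing. Delta genes made up 22.5% of the ligand TPM in the former and 19.4% in the latter.

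LFNG (ENSGALG00000038515) encodes Lunatic fringe, a sugar transferase that extends O-fucose on the receptors and so changes their response to Delta and Jagged ligands. It was at 50.3 TPM in the left, uninjected wing and 50.1 TPM in the right, injected wing. This was the smallest difference among the Notch genes, a log2 ratio of −0.01, and 96.7% of all genes compared had a ratio at least as far from 0. Its sign changed under 3 other scalings and with the abundance trend removed, where the ratio lay at 0.02 to 0.04.

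Of the targets, HES1 and HEY2 had higher values in the injected wing and HEY1 was nearly level. HES1 (ENSGALG00000028015), a repressor that many Notch-active cells switch on, was at 43.3 TPM in the left, uninjected wing and 58.7 TPM in the right, injected wing. Its log2 ratio of 0.44, 35.4% above the uninjected wing, was the largest difference among the 10 genes in either direction, and it did not reach 1.5-fold. HEY2 (ENSGALG00000034716), a transcriptional repressor that acts in artery and heart formation, was at 5.40 and 7.25 TPM, a ratio of 0.42. HEY1 (ENSGALG00000035031), its close relative, was at 80.8 and 79.6 TPM, a ratio of −0.02 whose sign changed under the same alternatives as that of LFNG, where it lay at 0.01 to 0.03.

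HEY1 thus exceeded HEY2 by 14.9-fold in the uninjected and 11.0-fold in the injected wing, and made up 62.4% and 54.7% of the summed TPM of the targets. HES1 made up 33.5% and 40.3%. RefSeq lists HES1 as an older symbol of HES4, a related gene with its own row in the table, so the name HES1 can refer to either gene. The row named HES1 in the deposited table was taken as given, and its identity was not checked by sequence. HES4 was at 48.3 TPM in the left, uninjected wing and 52.6 TPM in the right, injected wing (0.12).

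Ratios scattered more among scarce genes than among abundant ones. Each Notch gene was therefore set beside the 500 genes nearest to it in mean TPM. Ratios of 9 genes lay inside the 5th to 95th percentile of those neighbours, and HES1 lay above it. By definition such a band leaves out 5% of the neighbours on each side, so 1 of 10 genes outside is close to that share. For HES1 the neighbours ran from −0.27 to 0.23, and 99.0% of them had a lower ratio. HEY2 had nearly the same ratio, but its neighbours ran from −0.79 to 0.43, so it lay within, with 94.2% of them below. DLL1 and DLL4 lay within, with 22.2% and 13.2% of their neighbours below. NOTCH2, at −0.22, stood nearer to the edge of its narrower range of −0.29 to 0.28, with 9.20% below. These percentiles describe the genes of 2 libraries and give no error for any 1 gene.

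**Figure D2:**
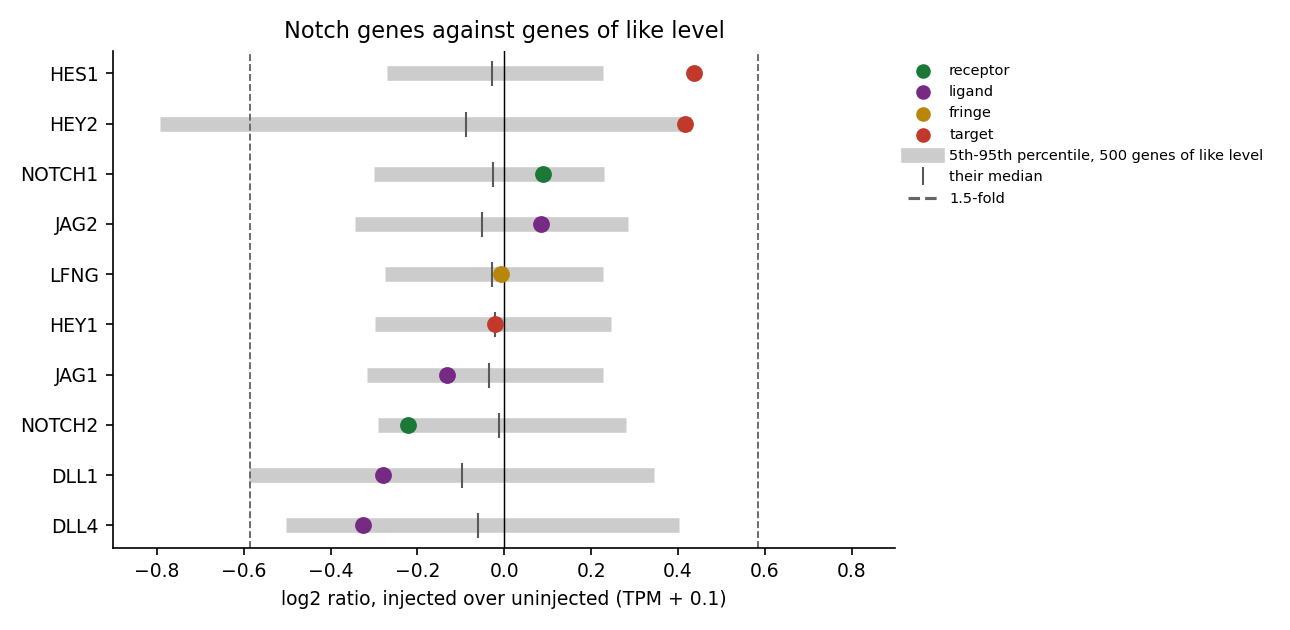
Wing difference of each Notch gene as the log2 ratio of the injected to the uninjected wing (coloured points, by role), with grey bars for the 5th to 95th percentile of the 500 genes nearest in mean TPM, ticks for their median and dashed lines at 1.5-fold. All points lie between the dashed lines, and HES1, at 0.44, lies beyond its bar, which ends at 0.23. Each bar by definition leaves out 5% of the neighbours on each side.

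**Figure D3:**
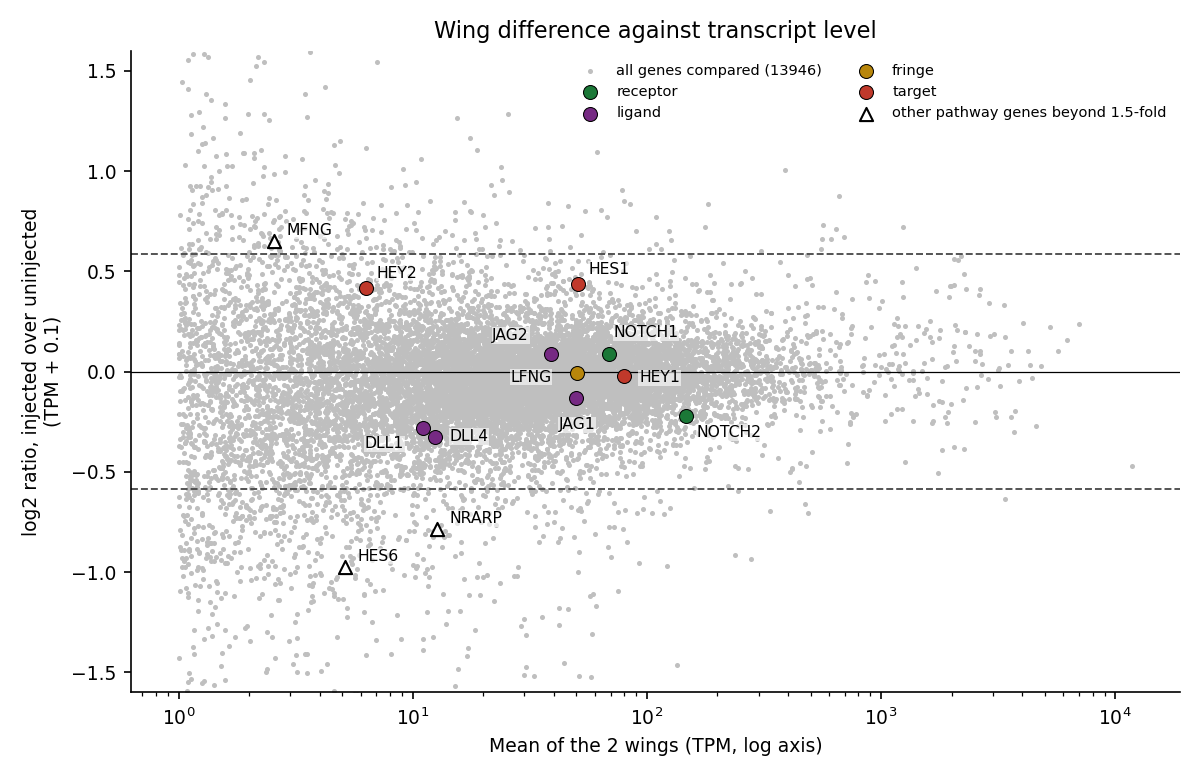
Wing difference, as the log2 ratio of the injected to the uninjected wing, against the mean TPM of the 2 wings (log axis) for 13946 genes (grey), with the Notch genes in colour by role, 3 other pathway genes beyond 1.5-fold as triangles, and dashed lines at 1.5-fold. The plot ends at 1.6 in both directions, which leaves out 53 genes. The Notch genes lie between the dashed lines, and MFNG, HES6 and NRARP lie outside them.

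A wider list of 67 pathway genes, which includes the 10 above, was read in the same way. Of these, 53 had a row under their symbol or an older one and 51 could be compared, since HES2 was listed at 0 in both wings and HELT was under the minimum level. Of the 51, 1 was higher, 2 were lower and 48 lay within 1.5-fold, which is 5.88% called beside 7.02% of all genes. The median log2 ratio of the list was 0.02, with 27 above 0 and 24 below; the other scalings and removal of the abundance trend gave 30 to 32 above and medians of 0.07. Outside the 10 genes, 3 of 41 were called. No row was matched under the symbols NOTCH3, NOTCH4, DLL3 or HES7, which were not analysed here.

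The 3 called genes are regulators or relatives of the genes above. NRARP, an ankyrin repeat protein that Notch switches on and that dampens the signal in turn, was at 16.1 TPM in the left, uninjected wing and 9.29 TPM in the right, injected wing, a log2 ratio of −0.79. HES6, a HES relative that in the mouse counteracts HES1 and favours differentiation, was at 6.81 and 3.42 TPM (−0.97). MFNG, the Manic fringe enzyme, was at 1.97 and 3.15 TPM (0.65). MFNG is scarce: with a pseudocount of 1 TPM its ratio was 0.48 and no longer called. Among the 500 genes nearest in level to MFNG, 21.0% passed 1.5-fold, against 4.60% for NRARP and 14.6% for HES6.

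The HES and HEY families as a group had 7 genes compared, with 5 above 0, 2 below, 1 called and a median of 0.12; under the alternatives in which HEY1 changed sign, 6 lay above and 1 below. HEYL was at 31.5 and 37.2 TPM (0.24), and HES5 at 5.54 and 5.64 TPM (0.02). Thus NRARP and HES6 had lower values in the injected wing, while HES1, HES4, HEY2 and HEYL had higher ones within 1.5-fold, and HEY1 and HES5 were nearly level. NRARP and HES1, both known as genes that Notch induces, lay on opposite sides of 0.

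Among the genes that modify the receptors, POFUT1, which adds the O-fucose that fringe enzymes extend, was at 81.7 and 64.5 TPM (−0.34). POGLUT1, which adds O-glucose, was at 140.3 and 134 TPM (−0.06), and RFNG, the Radical fringe enzyme, at 26.5 and 24.0 TPM (−0.14). All 3 lay within 1.5-fold. POFUT1 lay just below the 5th percentile, −0.33, of the 500 genes nearest to it in level, with 4.8% of them below. Of the 5 genes of this role 4 lay below 0, and 3 did under the alternatives in which LFNG changed sign.

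The 6 genes of receptor cleavage lay within a narrow range, from −0.16 to 0.02, with 5 below 0, or 4 under the 3 other scalings. ADAM10, the protease of the first cut, was at 109 and 111 TPM, and APH1A, a gamma-secretase subunit, at 77.8 and 69.8 TPM (−0.16). Genes that act on ligand endocytosis, a step that ligands need to activate receptors, all lay above 0, from 0.03 to 0.42, with 0 of 4 called. MIB1, the ubiquitin ligase for Delta and Jagged, was at 99.4 and 106 TPM (0.09), and NEURL1B at 38.9 and 40.5 TPM (0.06).

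In the nucleus, RBPJ was at 56.2 and 60.2 TPM (0.10), and SNW1, a coactivator also found in the spliceosome, at 104 and 108 TPM (0.07). The corepressor CTBP1 was at 154 and 160.3 TPM (0.06). None of the 11 nuclear activators and corepressors compared passed 1.5-fold. NUMB, an inhibitor of the receptor, was at 44.1 and 42.8 TPM (−0.04), and DTX4, of the Deltex family of ubiquitin ligases, at 57.1 and 59.2 TPM (0.05). The 6 genes of turnover and inhibition compared ran from −0.49 to 0.07, with 3 above 0, 3 below and 0 called. The lowest was DTX1, at 6.85 and 4.85 TPM, inside the 5th to 95th percentile of the 500 genes nearest to it in level. The non-canonical ligands DLK1 (20.5 and 23.8 TPM, 0.22), DLK2 (21.9 and 17.7 TPM, −0.31) and DNER (26.5 and 29.4 TPM, 0.15) also lay within 1.5-fold.

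**Figure D4:**
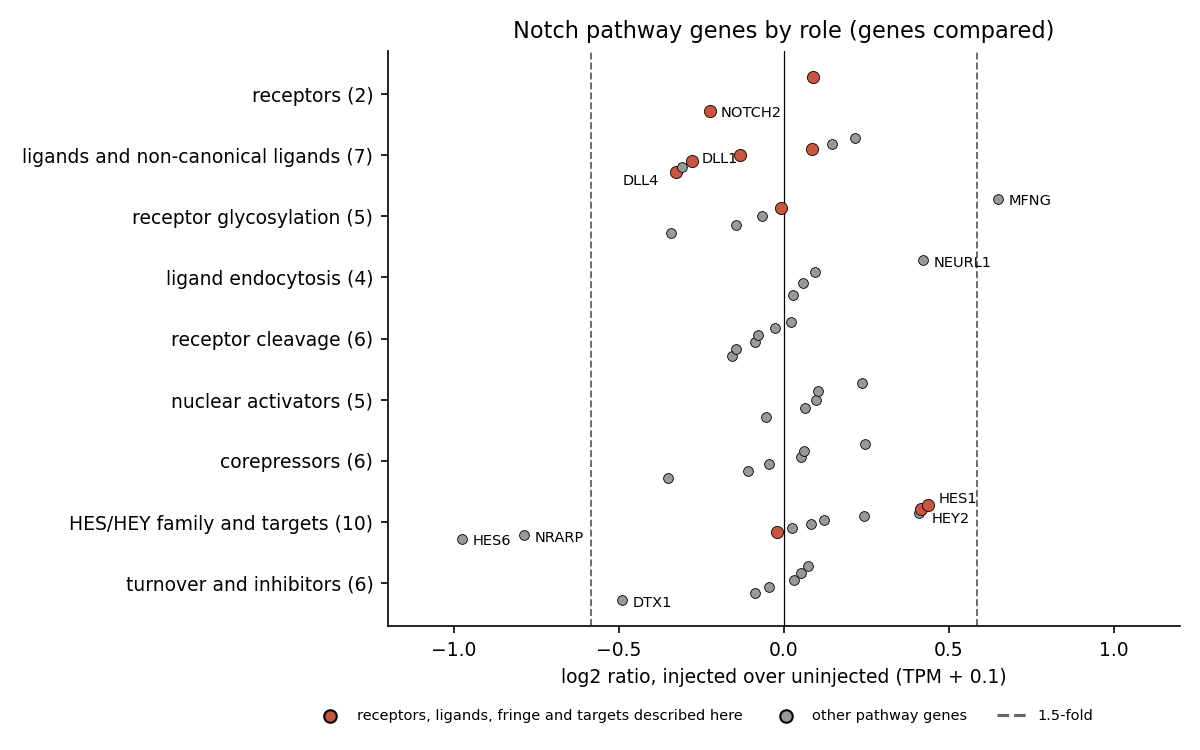
Wing difference, as the log2 ratio of the injected to the uninjected wing, for the 51 pathway genes compared, 1 point a gene, in rows by role with the number of genes in brackets; red points are the 10 genes described here and dashed lines mark 1.5-fold. MFNG, at 0.65, lies beyond the right line, NRARP and HES6, at −0.79 and −0.97, beyond the left one, and the other 48 between them.

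Markers of the cell types in which these genes are known were read from the same libraries. Limb mesenchyme was present, with PRRX1 at 239 and 204 TPM and TBX5, the wing identity factor, at 113 and 137 TPM, which fits the labelled forelimb. For the endothelium, where DLL4, JAG1 and HEY2 are known, all 11 markers compared lay within 1.5-fold, with a median of −0.01 (0.04 under the other scalings and with the trend removed) and a summed level of 479 and 469 TPM. The levels of CDH5, a junction protein, were 144 and 141 TPM, and those of ERG, a transcription factor, 72.0 and 71.4 TPM. The 5 arterial markers, 1 of them shared with the endothelial list, had a median of 0.11 and 0 calls. Of these, 4 lay above 0, among them NRP1 at 92.3 and 99.7 TPM and GJA5 at 91.6 and 97.1 TPM. EFNB2 lay below 0, at 32.2 and 29.0 TPM (−0.15). The ratios of both lists ran from −0.16 to 0.32, and those of JAG1, DLL4 and HEY2 were −0.13, −0.33 and 0.42. The marker lists were not matched to these genes in level. DLL4 and HEY2 lay inside the range of the genes nearest to them in mean TPM. Any part of endothelial content in their ratios was not tested. Pericyte and smooth muscle markers had 0 calls among 9 and a median of 0.08, with DES at 241 and 224 TPM and ACTA2 at 145 and 170 TPM.

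Calls were made in 4 other lists. Of 6 myogenic genes MYF5 was higher (11.9 and 25.7 TPM, 1.11), with a median of 0.15; MEF2C was at 138 and 131 TPM and MYOD1 at 106 and 116 TPM. Their summed level was 373 and 409 TPM. DLL1 and HES6, both known in muscle differentiation, had log2 ratios of −0.28 and −0.97, and a link to the myogenic genes was not tested. Cartilage genes had 0 calls among 7 and 6 above 0, with a median of 0.16, COL2A1 at 1128 and 1286 TPM and COL9A1 at 368 and 494 TPM. Epidermal genes had 7 of 8 below 0 (6 under the other scalings and with the trend removed) and a median of −0.30, with ESRP1 lower (−0.72), KRT14 at 156 and 121 TPM and EPCAM at 106 and 82.7 TPM. Of 6 nerve and Schwann cell genes 4 were higher, among them STMN2 (0.71) and SOX10 (0.61), and the most abundant, TUBB3, was at 96.9 and 92.5 TPM. MSX1 was the only call among 5 limb mesenchyme genes, lower at −1.57. Blood genes had 0 calls among 4, with HBA1 at 1301 and 1145 TPM and HBBA at 1174 and 1183 TPM. These globin values are uncertain, since reads shared among related globin genes were not examined. No marker that had a row was listed at 0. The part of these tissues in the ratios of the Notch genes was not tested.

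**Figure D5:**
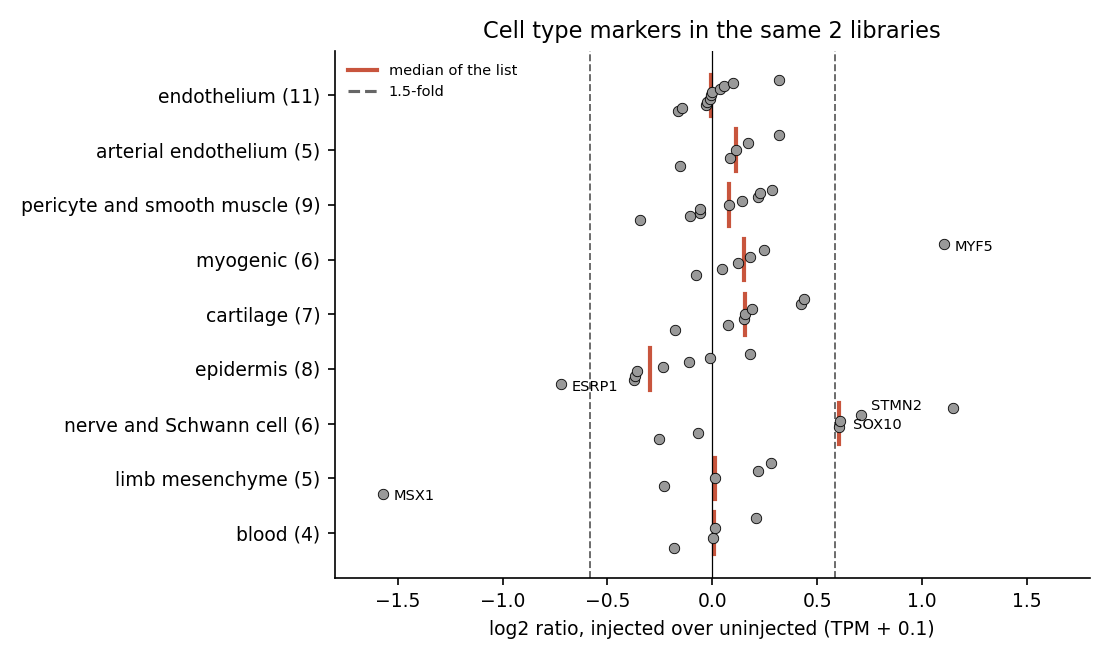
Wing difference, as the log2 ratio of the injected to the uninjected wing, for markers of 9 cell types, 1 point a gene, with the number compared in brackets, red bars for the median of each list and dashed lines at 1.5-fold. Endothelial markers gather near 0, with a median of −0.01 (0.04 under the other scalings), epidermal markers lie mostly below 0, and 4 nerve and Schwann cell markers lie beyond 1.5-fold.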

How the data were processed

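The authors deposited TPM values for 2 libraries of 1 embryo, 1 per wing, under Ensembl chicken identifiers. Per the submitters' processing notes, the tools were HISAT2 2.2.1 and StringTie 2.1.7 and the build was GRCg6a. Settings, annotation and strand handling were not given in the sources used here. A deposited table of raw counts was not used here: the names of its 2 columns match neither sample's title, and whether they hold another embryo is unknown. Short RNAs (1309 rows) were left out. Genes above 0 in both libraries whose mean reached 1 TPM were compared as log2(TPM + 0.1), which understates the change of scarce genes. Because TPM sums to a fixed total, more of an abundant gene means less of the rest. Missing symbols were sought under older symbols in a RefSeq gene table of another assembly, used for names alone; 1 pathway gene matched so. The members and lists were chosen with earlier results of these data known. Named in the text were the 10 members, called genes and the 2 most abundant of each list or role, and other receptors, ligands, fringes and HES or HEY genes. A few genes under this rule are not reported here. With 2 libraries a pattern is 1 ratio, so no genes of like pattern were sought. The code for the scalings, and for calls made after them, was checked on simulated data. Its noise had a standard deviation of 0.1 on the log2 scale at every level, less than the scatter of scarce genes here. That check therefore gives no rate of false calls for these libraries. Python 3.11.15, pandas 2.3.3, NumPy 2.4.6 and matplotlib 3.10.9 were used.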

Additional observations from a re-analysis of the deposited data

How the results depend on the processing

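The 10 Notch genes stayed within 1.5-fold under every alternative that can move a ratio. These were pseudocounts of 1 and 0.01 TPM, scaling by trimmed mean, upper quartile or median of ratios, and removal of the abundance trend. The other alternatives change only which genes are compared or the size of a call, so each Notch gene's ratio was fixed. They were symbols only, no minimum mean, a mean of at least 5 TPM and a 2-fold rule. Keeping short RNAs, added after the data were seen, was another. HES1 ran from 0.43 to 0.49, HEY2 from 0.37 to 0.50 and DLL4 from −0.33 to −0.25. HEY1 (−0.02 to 0.03) and LFNG (−0.01 to 0.04) changed sign; the scalings moved all genes by 0.04 to 0.05. The 1 higher pathway gene became 0 under the 2-fold rule, a 5 TPM minimum and a pseudocount of 1 TPM, and the 2 lower genes became 0 under the 2-fold rule alone. Over all genes, 311 higher and 668 lower became 70 and 207 under the 2-fold rule, and 186 and 353 with symbols only. They became 122 and 292 with a mean of at least 5 TPM, and 186 and 432 with a pseudocount of 1 TPM. Without the minimum mean they were 831 and 1298, still among genes above 0 in both wings and without short RNAs. No paired analysis was possible because each group held 1 library. Unknown depth allows no counting error.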
